A study of Mus musculus with 36 samples.

Results

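The genes described here are 8 members of the intermediate filament superfamily. They are the simple epithelial keratins Krt8, Krt18 and Krt19, the cytoplasmic filament genes Vim and Nes, and the lamins Lmna, Lmnb1 and Lmnb2. The list is fixed by gene name and uses no threshold on a value, though it was drawn up with earlier results of these data known, and the count table holds 49671 genes. All 8 passed the filter on low counts, which left 17702 genes for testing, so every member was tested in every comparison. RNA was sequenced from wild-type mouse embryonic stem cells (mESCs, strain label 129m wt) cultured on soft or stiff StemBond hydrogels or on tissue culture plastic. StemBond hydrogels are polyacrylamide gels made with a cofactor that tethers extracellular matrix protein to the gel covalently. After 24 h, cells in serum + LIF were collected from soft (3 libraries) and stiff (3 libraries) hydrogels. After 48 h, cells were collected from both hydrogels in serum alone, with LIF, with PD03 or with both added, with 6 libraries for soft serum + PD03 and 3 for each other group, and from plastic in serum + LIF (3 libraries). LIF is a cytokine that acts through STAT3 and supports self-renewal. PD03 inhibits MEK, the kinase that activates ERK. All 11 groups thus share serum and 1 genotype, plastic was present in 1 medium only, and no sorting of cell types is described. The labels do not say that the 36 libraries came from separate cultures, so p-values measure the spread between these libraries, which may be technical. The substrate comparisons ask which genes respond to stiffness, and the medium comparisons ask whether such responses depend on LIF or on ERK signalling.

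Intermediate filaments are rope-like polymers that give cells and nuclei mechanical resilience. Keratins are obligate heteropolymers of a type II chain (here Krt8) and a type I chain (Krt18 or Krt19), and are the first cytoplasmic filaments of the trophectoderm and of simple epithelia. Vim encodes vimentin, the type III filament of mesenchymal cells, and Nes encodes nestin, a type VI protein of progenitor cells that assembles with vimentin. Lamins are the nuclear members of the family and line the inner nuclear membrane. Lmna encodes the A-type lamins A and C, which are low in pluripotent cells and whose level follows tissue stiffness. Lmnb1 and Lmnb2 encode B-type lamins, which stay attached to the membrane and are made in nearly all cells.

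In the GENCODE M21 annotation of build GRCm38, Krt8 lies on the minus strand at chr15:101996698-102004482 and Krt18 on the plus strand at chr15:102028180-102032027. These partners are neighbours, with 23.7 kb between them, and are transcribed away from each other. Krt19 lies at chr11:100140810-100148665, Vim at chr2:13573927-13582826, Nes at chr3:87971078-87980451, Lmna at chr3:88480147-88509956 and Lmnb2 at chr10:80901203-80918245. Each is a protein-coding gene, and none of their exons overlaps an exon of another counted gene on either strand. A pseudogene, Krt8-ps, matches Krt8 at 98.6% over 941 bases, but it held 396 counts against 96619 for Krt8 (0.41%). How reads that fit both were assigned is not given in the sources used here. The promoter stretches of the keratin pair and of Vim are shown because Krt8 and Krt18 moved together in these data and Vim moved the opposite way under PD03. Each runs from 250 bases before to 30 bases after the RefSeq transcript start (build GRCm38.p6), 5′ to 3′, with matches to TATAAA on either strand in capitals.
Krt8, chr15:102004313-102004592, minus strand: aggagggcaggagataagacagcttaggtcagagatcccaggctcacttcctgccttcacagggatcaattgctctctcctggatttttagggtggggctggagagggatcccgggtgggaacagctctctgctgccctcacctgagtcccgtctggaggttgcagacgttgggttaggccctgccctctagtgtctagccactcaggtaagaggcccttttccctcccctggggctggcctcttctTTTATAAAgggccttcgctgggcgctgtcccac
Krt18, chr15:102027966-102028245, plus strand: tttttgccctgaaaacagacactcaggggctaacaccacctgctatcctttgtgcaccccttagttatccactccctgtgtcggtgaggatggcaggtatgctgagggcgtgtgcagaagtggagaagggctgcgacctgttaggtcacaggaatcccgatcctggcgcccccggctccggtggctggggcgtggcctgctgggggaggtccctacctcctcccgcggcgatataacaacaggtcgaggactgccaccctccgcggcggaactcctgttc
Vim, chr2:13574061-13574340, plus strand: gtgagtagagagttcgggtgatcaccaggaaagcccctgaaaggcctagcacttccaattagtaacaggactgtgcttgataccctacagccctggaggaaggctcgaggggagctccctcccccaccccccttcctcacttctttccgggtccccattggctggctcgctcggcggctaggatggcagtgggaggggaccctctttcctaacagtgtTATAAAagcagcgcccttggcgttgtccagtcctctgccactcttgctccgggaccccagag
RefSeq promoters of this kind were examined for 6 members. Those of Krt19 and Lmnb1 were not examined. The 280 bases were searched on both strands for TATAAA (the TATA box), TGANTCA (the AP-1 site), GGAATG (the TEAD site) and the CArG box of SRF. The match in Vim starts 32 bases before the transcript start. Krt8 has 2 overlapping matches within 3 bases of the start, on opposite strands. None of the other 3 motifs matched in any of the 6 members, and they occur in 7.46%, 13.9% and 1.56% of 32851 promoters of this length, against 13.1% for TATAAA.

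Total counts ranged from 10405696 to 26635239 per library, and the members were counted deeply, from 182 reads for Krt19 in 1 library to 10936 for Lmnb1. Levels are CPM, the usual depth-scaled counts, with TMM factors, and a gene is said to rise or fall where the adjusted p of edgeR's quasi-likelihood test was under 0.05. Markers of mESCs (Pou5f1, Sox2, Nanog, Zfp42 and Esrrb) summed to between 1660 and 3020 CPM in every library, so that the labelled cell type was present throughout. The sample descriptions also carry an SLX series identifier that the labels do not explain. Soft and stiff libraries share it at 24 h, whereas at 48 h it nearly coincides with the substrate. Columns of the count table could not be tied to single samples, so each comparison was refitted with this identifier as a term under all 45 possible assignments. At 48 h the effects of substrate and of whatever the identifier stands for can be told apart only weakly. Read counts from bulk RNA cannot tell fewer cells of a type from less RNA per cell.

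The members differed widely in level. Per kilobase of exon, the mean of the 11 group means was highest for Lmnb1 at 136 CPM per kb, followed by Krt18 at 90.4, Krt8 at 71.2, Vim at 41.1, Lmnb2 at 20.1, Krt19 at 16, Nes at 8.39 and Lmna at 8.22. The exon length is that of all exons annotated for a gene, merged over its transcripts. It was 4743 bases for Vim, 5838 for Lmna, 1958 for Krt8 and 1437 for Krt18. Where the RNA made is shorter than this, the level per kilobase is too low, so the order between genes is uncertain. The members also differed in how far the 11 group means spread. The highest group mean was 9.17 times the lowest for Krt18, 7.79 times for Krt8, 4.65 times for Krt19, 3.01 times for Nes and 2.98 times for Vim. For the lamins it was 1.68 times for Lmna, 1.27 times for Lmnb2 and 1.19 times for Lmnb1. Ordered by group mean, Krt8 ran from stiff serum + LIF + PD03 (354 ± 10.8 CPM, SD, n = 3) through stiff serum + PD03 (270 ± 20.2) and soft serum + LIF + PD03 (176 ± 5.17) to soft serum + LIF at 48 h (45.5 ± 5.38). Of the neighbours in that order, soft serum + LIF + PD03 and soft serum + PD03 overlapped in their libraries, as did soft serum + PD03 and stiff 24 h, stiff serum and stiff serum + LIF at 48 h, and soft serum and soft serum + LIF at 48 h. Krt18 kept the same order of groups. Lmna, Lmnb1 and Lmnb2 had overlapping libraries in every pair of neighbouring groups.

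**Figure D1:**
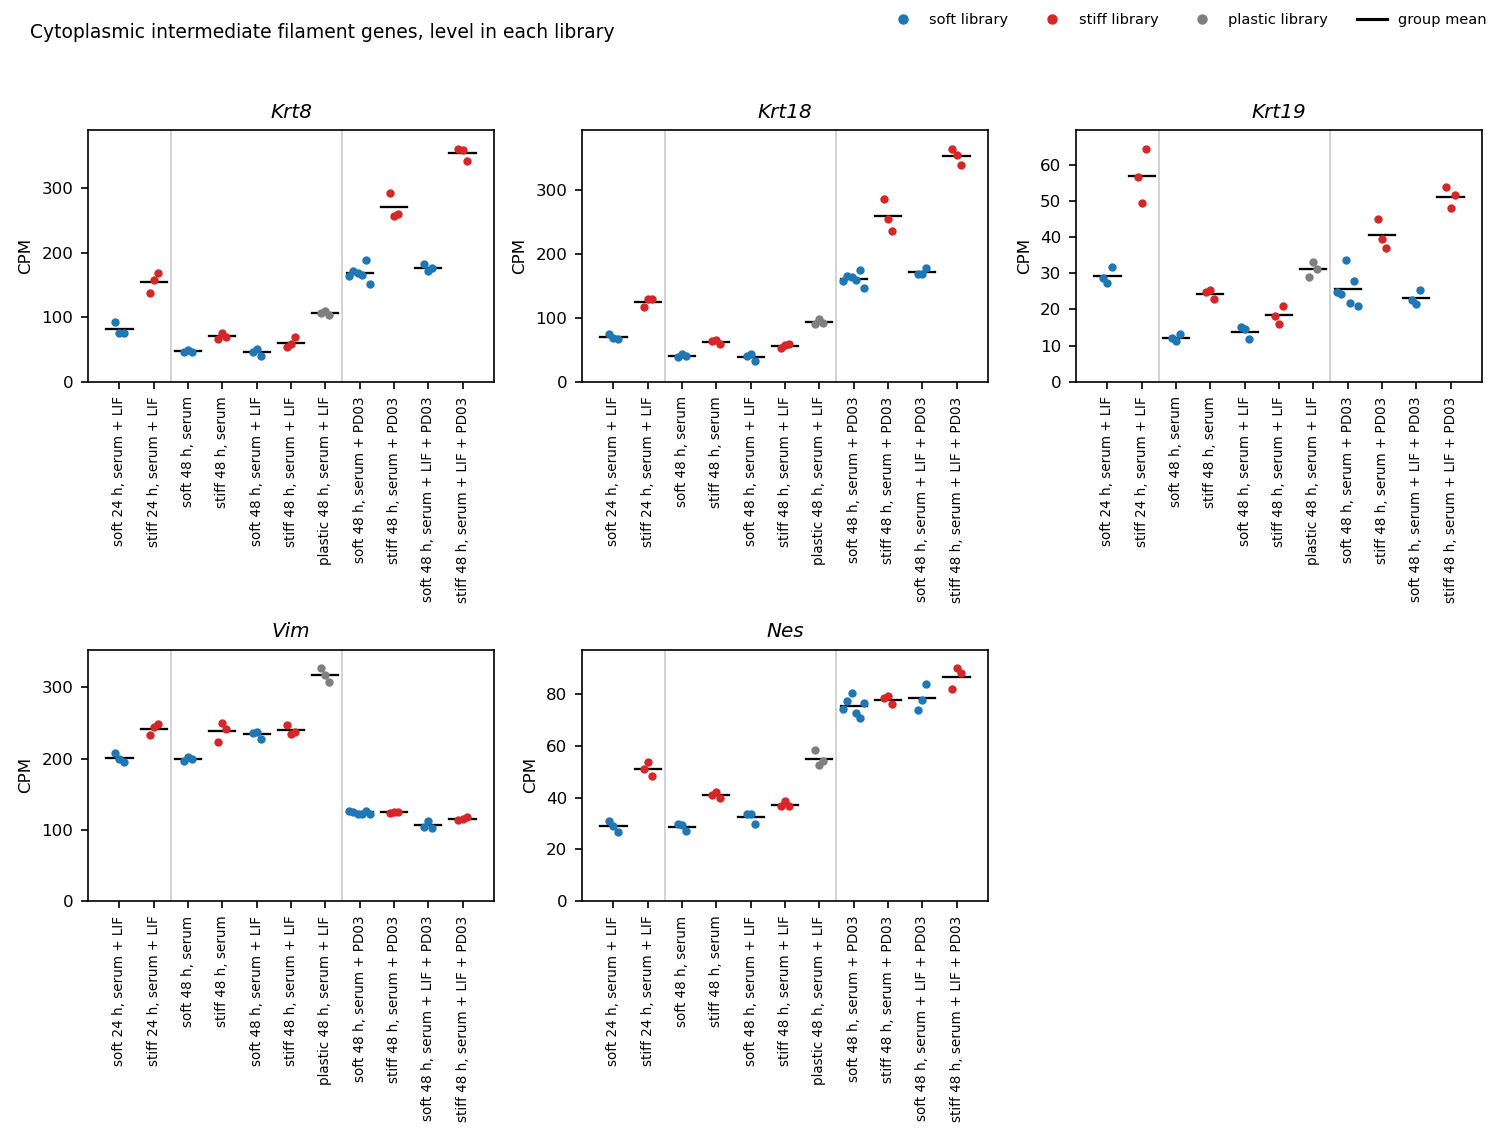
Level in each library (points, CPM on linear axes from 0) and group mean (black lines) of Krt8, Krt18, Krt19, Vim and Nes in the 11 groups, coloured by substrate; grey vertical lines part 24 h, 48 h without PD03 and 48 h with PD03. The Krt8 and Krt18 libraries on stiff serum + LIF + PD03 lie between 338 and 364 CPM, Vim lies at 102 to 127 CPM in libraries with PD03, and Nes lies at 70.7 to 89.9 CPM there.

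Krt8 and Krt18 were lower on soft than on stiff hydrogels in all 5 conditions. At 24 h in serum + LIF, Krt8 was at 92.6, 76.2 and 76.2 CPM on soft and at 137, 157 and 168 CPM on stiff hydrogels. The soft libraries all lay below the stiff ones, and the level was 1.89-fold lower (log2 change −0.92, SE 0.08, adjusted p = 1.39e-12). At 48 h in serum it was at 45.4, 49.8 and 46.1 CPM on soft against 65.6, 75.2 and 69.9 CPM on stiff (log2 −0.57, SE 0.08, adjusted p = 2.3e-06). In serum + PD03 the 6 soft libraries ran from 152 over a median of 168 to 188 CPM, and the stiff libraries were at 293, 257 and 260 CPM. In serum + LIF + PD03 the soft libraries were at 182, 171 and 176 CPM, against 361, 359 and 342 CPM on stiff hydrogels. No library of one substrate reached the range of the other in either medium, and the log2 changes were −0.68 (SE 0.06) and −1.01 (SE 0.07, 2.01-fold). The smallest change was at 48 h in serum + LIF, where soft libraries were at 46.7, 50.1 and 39.6 CPM and stiff libraries at 54.3, 58.6 and 69.0 CPM (log2 −0.42, SE 0.09, adjusted p = 0.00621). That call was lost without soft library 3 or without stiff library 3, and it held in 8 of the 45 refits with the SLX term, whose log2 changes ran from −0.63 to −0.17.

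Krt18, the chain that pairs with Krt8, followed it closely. Its log2 changes on soft hydrogels were −0.85 (SE 0.07) at 24 h, −0.55 (SE 0.08) at 48 h in serum + LIF, −0.62 (SE 0.08) in serum, −0.68 (SE 0.06) once PD03 was added and −1.04 (SE 0.07) with both LIF and PD03. The libraries of both substrates did not overlap in any of the 5, and the largest adjusted p was 3.02e-05. With the SLX term the call in serum + LIF at 48 h held in 26 of 45 refits, and the other 4 held in all. The alternative type I chain, Krt19, was at 12.1, 11.2 and 13.3 CPM on soft and at 24.9, 25.3 and 22.9 CPM on stiff hydrogels in serum at 48 h. These values differed 2-fold (log2 −1, SE 0.12, adjusted p = 8.91e-08). Krt19 also fell on soft hydrogels at 24 h (log2 −0.96, SE 0.11), in serum + PD03 (−0.66, SE 0.09) and in serum + LIF + PD03 (−1.14, SE 0.11, 2.21-fold). In serum + LIF at 48 h its soft libraries were at 15.1, 14.5 and 11.9 CPM and its stiff libraries at 18.3, 16.1 and 21.1 CPM, which did not overlap but missed the threshold (log2 −0.43, SE 0.13, adjusted p = 0.127), and with the SLX term the log2 difference reached 0.11.

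Vim and Nes were lower on soft hydrogels at 24 h and in serum at 48 h. Vim was at 208, 200 and 196 CPM on soft and at 233, 245 and 248 CPM on stiff hydrogels at 24 h, a 1.20-fold difference (log2 −0.26, SE 0.04, adjusted p = 5.56e-05). In serum at 48 h it was at 197, 203 and 199 CPM on soft against 223, 250 and 242 CPM on stiff (log2 −0.25, SE 0.04, adjusted p = 8.63e-05), a call that held in 36 of 45 refits with the SLX term. Soft libraries lay below stiff ones in both. In serum + PD03 the groups overlapped completely, with soft libraries between 123 and 127 CPM and stiff libraries at 124, 125 and 125 CPM, and the 95% interval of the log2 difference ran from −0.08 to 0.08. They also overlapped in serum + LIF at 48 h (log2 −0.04, SE 0.04, adjusted p = 0.834). In serum + LIF + PD03 soft libraries lay below stiff ones but missed the threshold (log2 −0.13, SE 0.05, adjusted p = 0.0844), which was passed with library totals and without soft library 2. Nes was at 30.8, 28.9 and 26.8 CPM on soft and at 50.9, 53.8 and 48.2 CPM on stiff hydrogels at 24 h (1.78-fold, log2 −0.83, SE 0.07, adjusted p = 4.23e-13). In serum at 48 h it was at 29.9, 29.4 and 27 CPM on soft and at 40.9, 42.2 and 39.7 CPM on stiff (log2 −0.51, SE 0.07, adjusted p = 2.6e-07). The substrates were again fully separated in both conditions. In serum + LIF at 48 h the log2 difference was −0.21 (SE 0.07, adjusted p = 0.174) with no overlap, in serum + PD03 it was −0.05 (95% interval −0.15 to 0.05) and in serum + LIF + PD03 −0.15 (−0.26 to −0.03, adjusted p = 0.126).

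Lmna fell on soft hydrogels with PD03 and did not pass the test without it. In serum + PD03 the 6 soft libraries ran from 33.3 over a median of 37.5 to 41.7 CPM, and the stiff libraries were at 56.7, 49.8 and 46.7 CPM (1.37-fold, log2 −0.45, SE 0.06, adjusted p = 1.28e-06). In serum + LIF + PD03 soft libraries were at 43.8, 36.6 and 43.5 CPM and stiff libraries at 59.7, 61.7 and 61.8 CPM (1.48-fold, log2 −0.57, SE 0.07, adjusted p = 6.99e-08). The substrates did not overlap in either medium. Without PD03, soft and stiff libraries overlapped in all 3 conditions, with log2 differences of −0.15 (95% interval −0.30 to −0.01) at 24 h, 0.00 (−0.16 to 0.15) in serum + LIF and −0.09 (−0.24 to 0.06) in serum. The B-type lamins did not pass the test in any of the 5 conditions. Their log2 differences lay between −0.06 and 0.07 for Lmnb1 and between −0.02 and 0.07 for Lmnb2, and over the mean of the 5 conditions the 95% intervals ran from −0.04 to 0.04 and from −0.01 to 0.09.

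**Figure D2:**
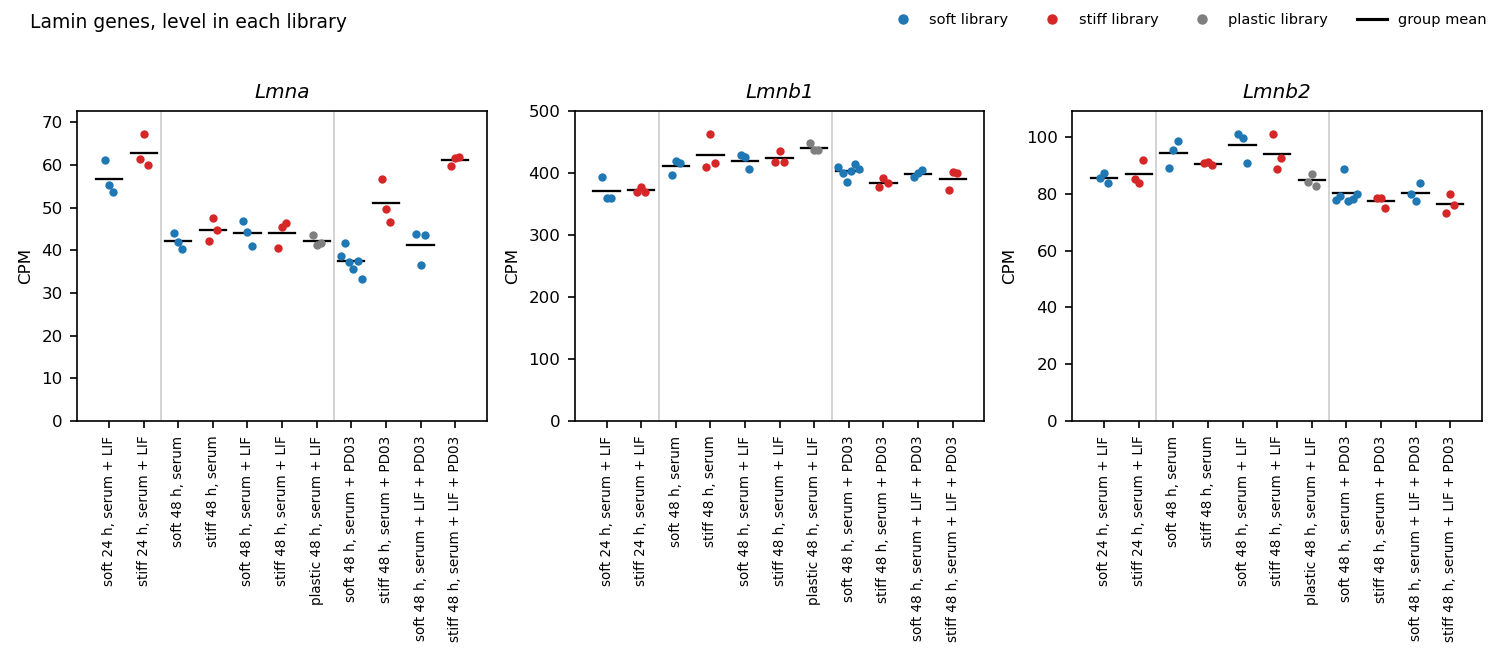
Level in each library (points, CPM on linear axes from 0) and group mean (black lines) of Lmna, Lmnb1 and Lmnb2 in the 11 groups, coloured by substrate. Lmna is at 46.7 to 61.8 CPM on stiff and at 33.3 to 43.8 CPM on soft hydrogels with PD03, while Lmnb1 stays between 359 and 463 CPM in all libraries.

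Counted over the members, 5 of 8 fell on soft hydrogels at 24 h, against 2.52% of all genes falling and 3.55% called in either direction. In serum + LIF at 48 h, 2 of 8 fell (0.333% of all genes falling, 0.78% called). In serum it was 5 of 8 (2.77% and 4.85%), in serum + PD03 4 of 8 (3.42% and 5.55%) and in serum + LIF + PD03 4 of 8 (4.82% and 7.61%). Over the mean of the 5 conditions, Krt19 (log2 −0.84, SE 0.05), Krt18 (−0.75, SE 0.03), Krt8 (−0.72, SE 0.03), Nes (−0.35, SE 0.03), Lmna (−0.25, SE 0.03) and Vim (−0.14, SE 0.02) fell, which is 6 of 8 against 8.74% of all genes falling and 17.1% called. The calls on this mean held in 17 of 45 refits with the SLX term for Vim and in 28 for Lmna, and in all 45 for the other 4 genes.

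Some trophoblast and fibroblast markers fell on soft hydrogels along with the keratins. Of 6 trophoblast markers (Cdx2, Gata3, Eomes, Elf5, Hand1 and Krt7, the last being itself a keratin), 4 fell on soft hydrogels over the mean of the 5 conditions, among them Hand1 and Krt7 (log2 −0.75 each, SE 0.05 and 0.07), and none rose. By condition, 3 of 6 fell at 24 h, 3 in serum, 4 with PD03 alone and 3 with LIF and PD03 together. In serum + LIF at 48 h edgeR called 0, with 3 at an unadjusted p under 0.05 and 1 by DESeq2. Of all genes, 8.74% fell and 17.1% were called on the mean of the 5 conditions. The shares falling were 2.52% at 24 h, 2.77% in serum, 3.42% with PD03 alone and 4.82% with LIF and PD03. In serum + LIF at 48 h the share was 0.333%. The summed level of the trophoblast list was 44.9 to 52.7 CPM on soft against 71.9 to 76.8 on stiff at 24 h, and 148 to 151 against 207 to 225 CPM in serum + LIF + PD03. Elf5 was at 0 in some libraries and never above 0.861 CPM. Of 7 tested fibroblast markers, 5 fell over the same mean, led by Dcn, Col1a1 and Col1a2. By condition, 1 fell at 24 h, 1 in serum + LIF at 48 h, and 2 in each other medium. The list summed to 25.2 to 48.9 CPM on soft and 35.8 to 99.4 CPM on stiff hydrogels over the 5 conditions. Col1a1 had a mean of 35.1 CPM over all libraries, whereas Dcn (0.484), Col3a1 (0.856) and Postn (0.907) were under 1 CPM. Lum was near 0 (at most 0.19 CPM). Of 7 tested markers of extraembryonic endoderm, 1 fell (Dab2, log2 −0.19, SE 0.04), a share of 14.3% that was near the 17.1% of all genes called. The endoderm genes Afp and Ttr never exceeded 0.349 and 0.19 CPM. Of the 5 mESC markers, 4 rose on soft hydrogels over this mean, led by Esrrb (log2 0.29, SE 0.02), and of 4 tested neural precursor markers 3 rose, led by Pax6 (0.33, SE 0.05). At 24 h the soft libraries also held fewer reads (11124741 to 16539932) than the stiff ones (19857202 to 22530889). The part of these markers and of depth in the differences of the members was not tested.

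On plastic, the 5 cytoplasmic filament genes stood above both hydrogels in serum + LIF at 48 h. Vim was at 327, 317 and 307 CPM on plastic, against 247, 235 and 237 CPM on stiff and 236, 238 and 228 CPM on soft hydrogels. Its plastic libraries were the highest of the 36. Against plastic, stiff hydrogels were lower by log2 −0.40 (SE 0.04) for Vim, −0.56 (SE 0.06) for Nes, −0.80 (SE 0.08) for Krt8, −0.73 (SE 0.07) for Krt18 and −0.74 (SE 0.12) for Krt19. Soft hydrogels were lower by −0.44 (SE 0.04), −0.77 (SE 0.07), −1.22 (SE 0.08), −1.28 (SE 0.08) and −1.16 (SE 0.12) in the same order. With the SLX term the call of Krt19 held in 34 of 45 refits on stiff and in 35 on soft hydrogels, where its log2 change ran from −1.84 to −0.45, and that of Vim in 44 on soft hydrogels. Both comparisons share the 3 plastic libraries. On stiff hydrogels this is 5 of 8 members falling, against 3.59% of all genes falling and 5.54% called, and on soft hydrogels it is also 5 of 8, against 6.47% and 11.8%. Lmnb2 was higher on soft hydrogels (101, 99.4 and 90.6 CPM) than on plastic (84.1, 87 and 82.8 CPM), with log2 0.20 (SE 0.06, adjusted p = 0.0131), a call lost without soft library 1 or soft library 2 and held in 5 of 45 refits with the SLX term. Lmna and Lmnb1 did not pass the test against plastic. The plastic libraries carried 2.27% to 2.92% mitochondrial counts, above the median of 1.32% over all libraries, and fibroblast markers summed to 73.3 to 85.3 CPM there, against 28.3 to 43.3 CPM on both hydrogels in this medium. They also stood apart in the share of counts from the gene Gm26917, at 2.45% to 3.19% against at most 2.19% elsewhere, and their TMM factors of 0.963 to 0.965 were at the low end of all libraries. The part of these values in the differences was not tested.

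MEK inhibition changed 74.3% of all genes over the mean of 4 comparisons, and all 8 members were among them, although the call of Lmna was lost without stiff serum + PD03 library 1. The largest changes among the members were those of Krt8 and Krt18. PD03 raised Krt8 in serum + LIF on stiff hydrogels from 54.3, 58.6 and 69.0 CPM to 361, 359 and 342 CPM, which is 5.81-fold (log2 2.54, SE 0.08, adjusted p = 1.19e-31). Krt18 rose 6.25-fold there, from 52.8, 56.6 and 59.2 CPM to 364, 354 and 338 CPM. No library with PD03 came near the range without it. On soft hydrogels with LIF, Krt8 rose 3.87-fold (log2 1.95, SE 0.08) and Krt18 4.46-fold (2.16, SE 0.07). Without LIF the rises were 3.86-fold and 4.14-fold on stiff and 3.57-fold and 3.95-fold on soft hydrogels. Krt19 rose less, by 2.75-fold on stiff hydrogels with LIF (log2 1.46, SE 0.11), and by log2 0.74 (SE 0.13), 0.73 (SE 0.11) and 1.07 (SE 0.11) on soft with LIF, stiff without LIF and soft without LIF.

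Vim moved against the keratins. In serum + LIF on soft hydrogels it fell from 236, 238 and 228 CPM to 104, 113 and 102 CPM (2.20-fold, log2 −1.14, SE 0.05, adjusted p = 7.12e-27). On stiff hydrogels it fell from 247, 235 and 237 CPM to 114, 116 and 118 CPM (2.06-fold), and without LIF it fell 1.91-fold on stiff and 1.60-fold on soft hydrogels. Nes, which assembles with vimentin, rose with PD03 in the same libraries. It went from 33.5, 33.8 and 29.6 CPM to 73.8, 77.5 and 83.7 CPM on soft hydrogels with LIF (2.42-fold, log2 1.28, SE 0.06, adjusted p = 3.25e-23). The other rises of Nes were 2.32-fold on stiff with LIF, 1.90-fold on stiff without LIF and 2.61-fold on soft without LIF. Libraries with and without PD03 were fully separated for both genes in all 4 comparisons.

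Among the lamins, Lmnb2 fell with PD03 in all 4 comparisons, by log2 −0.23 to −0.30 (SE 0.05 to 0.06, largest adjusted p = 0.000519). In serum + LIF on stiff hydrogels it went from 101, 88.8 and 92.4 CPM to 73.3, 80 and 76.0 CPM, without overlap. Lmnb1 fell slightly on stiff hydrogels, by log2 −0.12 (SE 0.04, adjusted p = 0.0244) with LIF and −0.16 (SE 0.05, adjusted p = 0.00223) without it. The first of these was lost without stiff serum + LIF library 2 or stiff serum + LIF + PD03 library 1 and with no filter on low counts, and it held in 30 of 45 refits with the SLX term. The second was lost without stiff serum library 2. On soft hydrogels Lmnb1 differed by −0.07 (95% interval −0.17 to 0.02) and −0.03 (−0.10 to 0.05). Lmna rose on stiff hydrogels, from 40.6, 45.4 and 46.4 CPM to 59.7, 61.7 and 61.8 CPM with LIF (1.38-fold, log2 0.47, SE 0.07, adjusted p = 2.78e-07). Without LIF it went from 42.2, 47.6 and 44.8 CPM to 56.7, 49.8 and 46.7 CPM, with overlap (log2 0.19, SE 0.07, adjusted p = 0.0263), and that call was lost without any of 3 single libraries (stiff serum 1 or 3, stiff serum + PD03 1). On soft hydrogels Lmna fell by log2 −0.18 (SE 0.06, adjusted p = 0.0177) without LIF, with overlapping libraries, a call lost without soft serum library 1 or soft serum + PD03 library 6, and differed by −0.10 (95% interval −0.25 to 0.06) with LIF.

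PD03 changed more than 1 in 2 genes, so that the share of members called has to be read against a high background. It was 6 of 8 on soft with LIF (54.4% of all genes), 8 of 8 on stiff with LIF (56.2%), 7 of 8 on soft without LIF (57.5%) and 8 of 8 on stiff without LIF (55.8%). On the mean of the 4 comparisons Krt18 rose by log2 2.21, Krt8 by 2.07, Nes by 1.20, Krt19 by 1 and Lmna by 0.10 (SE 0.04), while Vim fell by 0.95, Lmnb2 by 0.26 and Lmnb1 by 0.09. On this mean 74.3% of all genes were called. Trophoblast markers moved with the keratins here too. Of 6, 5 rose over the mean and Eomes fell (log2 −1.60, SE 0.08), with Gata3 at 2.94 (SE 0.04) and Krt7 at 2.49 (SE 0.07), and the list summed to 129 to 225 CPM in libraries with PD03 and to 27.3 to 52.5 CPM in those without it at 48 h. Of 7 tested endoderm markers, 2 rose, led by Dab2 (log2 1.90, SE 0.04), and 4 fell, led by Sox7 (−2.33, SE 0.09). Beside Nes, of 4 tested neural precursor markers 3 fell, led by Pax6 (−2.96, SE 0.06), and Tubb3 rose (0.17, SE 0.04). Beside Vim, 4 of 7 fibroblast markers rose and 3 fell. The part of these markers in the members' changes was not tested.

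**Figure D3:**
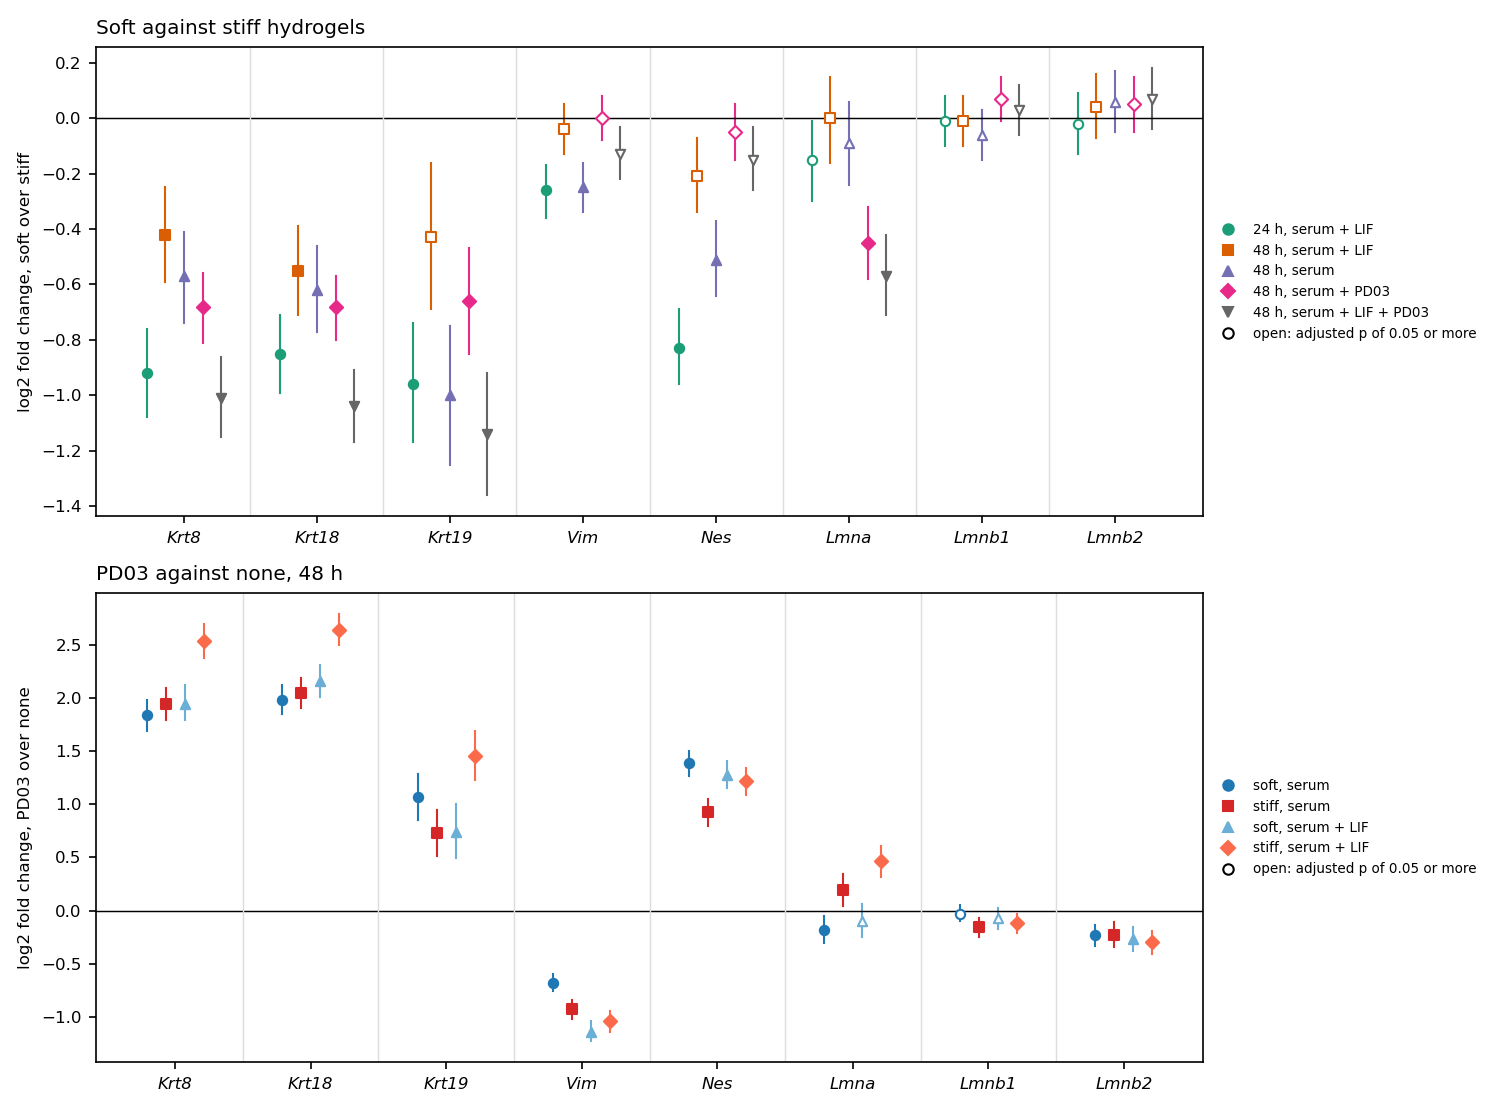
Log2 fold change of each member with its 95% interval (vertical lines), soft over stiff hydrogels in 5 conditions (top) and PD03 over none in 4 conditions (bottom); filled symbols passed an adjusted p of 0.05 and open symbols did not. The keratins lie below 0 on soft hydrogels in all 5 conditions and between 0.73 and 2.64 with PD03, Vim lies between −1.14 and −0.68 with PD03, and Lmnb1 and Lmnb2 lie within 0.07 of 0 on soft against stiff hydrogels.

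For some members the substrate difference depended on PD03. In media with LIF, the difference between soft and stiff hydrogels was larger with PD03 than without it for Krt8 (interaction log2 −0.59, SE 0.11, adjusted p = 0.00117), Krt18 (−0.49, SE 0.10, adjusted p = 0.0042), Krt19 (−0.72, SE 0.17, adjusted p = 0.017) and Lmna (−0.56, SE 0.11, adjusted p = 0.000833). This is 4 of 8 members, against 1.07% of all genes. Without soft serum + LIF library 2 the calls of Krt18 and Krt19 were lost, which left 2, and that of Krt19 was also lost without any of 4 other single libraries and held in 27 of 45 refits with the SLX term. In media without LIF, the substrate difference was smaller with PD03 for Nes (0.46, SE 0.08, adjusted p = 0.0011) and Vim (0.25, SE 0.06, adjusted p = 0.0265), 2 of 8 against 0.797% of all genes. The call of Vim was lost without any of 8 single libraries of the 15 in this comparison. For the keratins these interactions without LIF were −0.11 (95% interval −0.32 to 0.10) for Krt8, −0.07 (−0.26 to 0.12) for Krt18 and 0.34 (0.02 to 0.65, adjusted p = 0.384) for Krt19, and for Lmna −0.37 (SE 0.10, adjusted p = 0.0583).

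LIF moved the members little. With PD03 on stiff hydrogels it raised Krt8 from 293, 257 and 260 CPM to 361, 359 and 342 CPM (1.31-fold, log2 0.39, SE 0.07, adjusted p = 0.00222) and Krt18 from 286, 255 and 236 CPM to 364, 354 and 338 CPM (1.36-fold, log2 0.44, SE 0.06, adjusted p = 3.9e-05). Libraries with LIF lay above those without it for both partners, which is 2 of 8 members against 0.514% of all genes. Lmna was also higher there without overlap (log2 0.26, SE 0.07, adjusted p = 0.0886). On soft hydrogels LIF changed Vim alone, by log2 0.23 (SE 0.04, adjusted p = 0.0395) without PD03 and by −0.23 (SE 0.04, adjusted p = 0.0047) with it. These are 1 of 8 members each, against 0.0169% and 0.107% of all genes, and DESeq2 called the same number. The first held without only 1 of 6 single libraries and in 2 of 45 refits with the SLX term, and the second was lost without soft serum + LIF + PD03 library 1 or library 3. On stiff hydrogels without PD03, edgeR called 0 of 8 members (1.41% of all genes), with 4 at an unadjusted p under 0.05 and 0 by DESeq2. On the mean of the 4 comparisons it called 0 of 8 (1.85% of all genes), with 2 unadjusted and 0 by DESeq2, and the 95% intervals of the log2 difference ran from −0.03 to 0.13 for Krt8 and from −0.07 to 0.02 for Vim. The interaction of substrate and LIF was called for 0 of 8 members without PD03 (0.0847% of all genes; 3 unadjusted, 1 by DESeq2) and for 0 of 8 with PD03 (0.00565%; 4 unadjusted, 0 by DESeq2). Its largest values were those of Krt19, at 0.57 (SE 0.18, adjusted p = 0.226) and −0.48 (SE 0.14, adjusted p = 0.552).

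Levels in serum + LIF also differed between 24 h and 48 h. Krt8 fell from 137, 157 and 168 CPM to 54.3, 58.6 and 69.0 CPM on stiff hydrogels (2.53-fold, log2 −1.34, SE 0.08, adjusted p = 1.2e-18) and 1.79-fold on soft hydrogels. Krt18 fell 2.22-fold and 1.80-fold, and Krt19 3.05-fold and 2.12-fold. Lmna fell as well, from 61.3, 67.3 and 59.9 CPM to 40.6, 45.4 and 46.4 CPM on stiff (log2 −0.51, SE 0.07, adjusted p = 3.94e-07) and by −0.36 (SE 0.08) on soft hydrogels. Nes fell on stiff hydrogels (−0.45, SE 0.06), while on soft hydrogels it was at 30.8, 28.9 and 26.8 CPM and then at 33.5, 33.8 and 29.6 CPM, which overlapped (0.17, SE 0.07, adjusted p = 0.0699). Lmnb1 rose by 0.19 (SE 0.05) on stiff and 0.18 (SE 0.05) on soft hydrogels, and Vim (0.21, SE 0.05) and Lmnb2 (0.18, SE 0.06) rose on soft hydrogels. In all, 6 of 8 members were called on stiff hydrogels (25.6% of all genes) and 7 of 8 on soft hydrogels (24.4%). The SLX identifier coincides with time on soft hydrogels, and with it as a term the calls there fell to between 1 and 5 members, with Krt18 kept in all 45 refits and Lmnb1 in none. On stiff hydrogels the identifier coincides with time in part. With the term, 5 to 6 members were called there, and 2219 to 2431 of all genes against 4535. Of 6 trophoblast markers, 4 fell over the same interval on stiff hydrogels, among them Gata3 (log2 −1.04, SE 0.09) and Hand1 (−1.03, SE 0.11), and their part was not tested. The substrate difference was smaller at 48 h for Nes (interaction log2 0.62, SE 0.10, adjusted p = 0.000239) and Krt8 (0.50, SE 0.12, adjusted p = 0.037), 2 of 8 members against 0.254% of all genes. The call of Krt8 held in 5 of 45 refits with the SLX term and was lost without any of 8 single libraries, and that of Nes held in 31 of 45.

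Ratios within a library show how the members shifted against each other, and are given as a description. Their absolute size depends on the merged exon length taken for each gene, so they do not show which RNA was more abundant. Only shifts between groups are read. Per kilobase of exon, Krt8 + Krt18 stood at 1.01 ± 0.119 times Vim (SD, n = 3) on soft and at 1.39 ± 0.145 times on stiff hydrogels in serum + LIF at 48 h. With PD03 added the ratio was 9.36 ± 0.723 on soft and 17.4 ± 0.869 on stiff hydrogels. Krt8 to Krt18 stayed between 0.726 and 0.955 in all 36 libraries, whereas Krt19 to Krt18 was 0.354 ± 0.0501 on stiff hydrogels at 24 h and 0.113 ± 0.00688 in stiff serum + LIF + PD03. Lmna to the sum of both B-type lamins ranged from 0.0366 to 0.0782. It was highest on stiff hydrogels at 24 h (0.0737 ± 0.00416) and in stiff serum + LIF + PD03 (0.0699 ± 0.0016), and lowest in soft serum + PD03 (0.0414 ± 0.00334, n = 6).

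**Figure D4:**
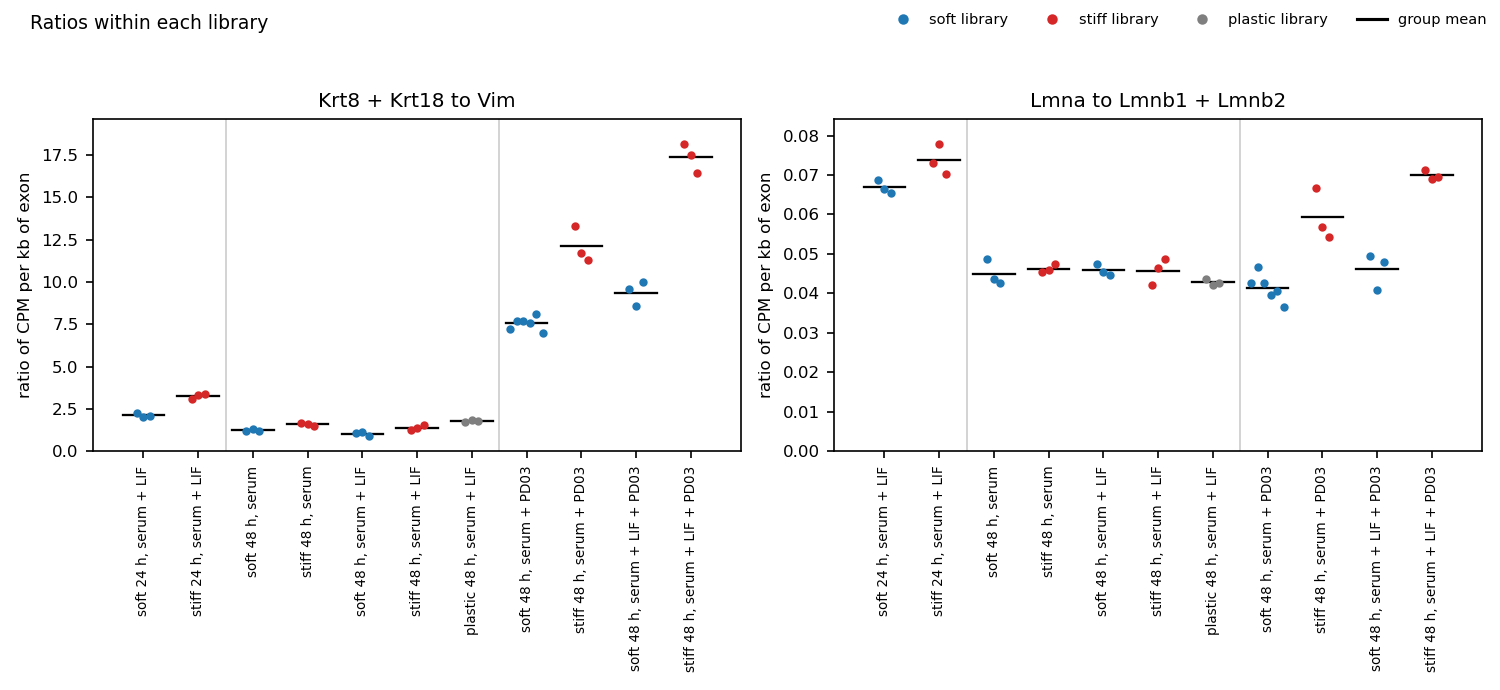
Ratio within each library (points) and group mean (black lines) of summed CPM per kb of exon, Krt8 + Krt18 to Vim (left) and Lmna to Lmnb1 + Lmnb2 (right), on linear axes from 0 in the 11 groups. The keratin to vimentin ratio is 0.88 to 3.36 in libraries without PD03 and 6.95 to 18.2 with it, and the libraries of both hydrogels do not overlap in the lamin ratio at 24 h or in either medium with PD03.

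RNA of plakin and desmosome genes, some of which encode anchors of filaments at the membrane, was read from a list. Of these genes 12 were tested, and Eppk1 was not analysed here. On soft hydrogels 5 of 12 fell at 24 h, 1 in serum + LIF at 48 h, 3 in serum, 5 with PD03 alone and 6 with LIF and PD03 together, with 1 rise (Jup, log2 0.15, SE 0.04) in the last. The shares of all genes called were 3.55%, 0.78%, 4.85%, 5.55% and 7.61% in the same order. Over the mean of the 5 conditions 8 of 12 fell and none rose, against 8.74% of all genes falling, with a median log2 change of −0.19 against 0 for all genes. The largest falls were those of Ppl (log2 −0.74, SE 0.06), Dsc2 (−0.51, SE 0.07) and Dsp (−0.45, SE 0.02), which encode periplakin, desmocollin 2 and desmoplakin, the last of which ties keratins to desmosomes. With PD03 6 of 12 rose and 4 fell over the mean, where 74.3% of all genes were called, Dsc2 by 1.17 (SE 0.08) and the desmosomal plaque gene Pkp2 by −1 (SE 0.03). The interaction of substrate and PD03 with LIF was called for 4 of 12, against 1.07% of all genes. All 4 had a larger difference under PD03, among them Ppl (−0.81, SE 0.19), Pkp2 (−0.63, SE 0.09) and Dsp (−0.46, SE 0.08).

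Of 16 tested other intermediate filament genes, 5 fell and 1 rose on soft hydrogels over the mean of the 5 conditions, where 17.1% of all genes were called, with a median log2 change of −0.02. Krt20 (−0.85, SE 0.18), Krt7 (−0.75, SE 0.07) and the peripherin gene Prph (−0.42, SE 0.09) led the falls, and Krt42 rose (0.32, SE 0.05). The level of Krt20 was low, at 0.144 to 1.92 CPM with a mean of 0.896 CPM over all libraries. By condition the counts were 2 falls at 24 h, 5 falls and 1 rise in serum, 1 fall with PD03 alone and 2 with LIF and PD03 together. The shares of all genes called were 3.55%, 4.85%, 5.55% and 7.61% in the same order. In serum + LIF at 48 h edgeR called 0, with 5 at an unadjusted p under 0.05 and 1 by DESeq2. With PD03, 9 of 16 fell and 5 rose over the mean, with a median of −0.68, where 74.3% of all genes were called. Ina, a neuronal filament gene with a mean of 101 CPM over all libraries, fell by log2 −3.13 (SE 0.03) and Krt17 by −2.21 (SE 0.09), whereas Krt7 rose by 2.49 (SE 0.07).

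Partners of lamins at the nuclear envelope, 20 genes all tested, had median log2 changes of −0.04 to 0.01 in the 5 comparisons of soft over stiff. On soft against stiff hydrogels edgeR called 0 of 20 at 24 h (2 at an unadjusted p under 0.05, 0 by DESeq2), 0 in serum + LIF at 48 h (2 unadjusted, 0 by DESeq2), 0 in serum + PD03 (4 unadjusted, 1 by DESeq2) and 0 in serum + LIF + PD03 (1 unadjusted, 0 by DESeq2). The shares of all genes called were 3.55%, 0.78%, 5.55% and 7.61% in the same order. At such shares few of 20 genes would be called, so these counts do not set the list apart. In serum Sun1 alone was called, against 4.85% of all genes, and rose (log2 0.27, SE 0.05). Over the mean of the 5 conditions 2 rose and 3 fell, with sizes of at most 0.20. This is a share of 25%, where 17.1% of all genes were called. Among them were Sun1 (0.11, SE 0.02), which links the lamina to the cytoskeleton, and Zmpste24 (−0.10, SE 0.03), the protease that matures prelamin A. With PD03, 12 of 20 rose and 6 fell over the mean, with a median of 0.22, where 74.3% of all genes were called. Sun2 (1.42, SE 0.06), Sun1 (1.24, SE 0.03) and Syne2 (0.98, SE 0.04), which together span the nuclear envelope, led the rises, and Nup153 (−0.41, SE 0.02), a nuclear pore gene, led the falls.

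Across the 11 group means of log2 CPM, the gene pattern most like that of Krt8 was Klf6 (Pearson r = 0.995), followed by Acta1 (0.994) and Anxa2 (0.992), and for Krt18 it was Acta1 (0.994), Klf6 (0.992) and Myh9 (0.992). Krt19 was most like Rnf128 (0.989), Tubb6 (0.981) and Parva (0.981), Vim most like Fam84b (0.986), and Nes most like Gtf3c1 (0.984). Lmna was most like Syt17 (0.954), Lmnb1 most like Gabpb2 (0.96) and Lmnb2 most like Phb (0.982). Among the members, Krt8 and Krt18 had r = 0.998, Krt18 and Nes 0.932, Krt18 and Vim −0.729, and Krt18 and Lmnb2 −0.96. These values describe 11 points, 4 of which carry PD03. Such likeness was common, with 837 genes above 0.9 for Krt18, 1675 for Vim, 90 for Krt19 and 8 for Lmna.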

How the data were processed

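Total RNA of 36 mESC libraries was extracted with a DNA digestion step and sequenced on an Illumina HiSeq instrument. The authors aligned reads with STAR 2.5.2a to mm10 and deposited whole-number counts per Ensembl gene from htseq-count, not normalised. Strand and multimapping settings are not given in the sources used here. Columns were matched to groups by name, and library numbers are only names. From the deposited counts, TMM-scaled CPM and edgeR 4.0.16 quasi-likelihood tests (R 4.3.3, limma 3.58.1) were computed in 1 model of all 11 groups. Benjamini-Hochberg adjustment ran over the 17702 genes left by edgeR's filter on low counts, and the threshold was an adjusted p of 0.05. These genes held 99.92% of the counts. Of all gene identifiers, 49326 carried a symbol. The procedure was tested on simulated data. Intervals are at the 95% level, and PCR reads are not independent molecules, so that depth limits counting error only. No pair of replicates was alike within sampling noise: over 45 pairs the chi-square per gene was 2.22 to 13.4. Alternatives were DESeq2 1.42.0, its size factors, library totals, no filter, only the groups compared, leaving out each library and the SLX term. All members are named in each comparison, and from each companion list at most 3 genes per direction with the largest called change. Like genes are the 3 with the highest Pearson r. Members and lists were chosen with earlier results of these data known.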

Additional observations from a re-analysis of the deposited data

Results flagged for a closer look

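Lmnb2 in soft serum + PD03 had 1 library apart from the others. Library 3 was at 88.8 CPM and the other 5 at 77.5 to 80 CPM, so that its gap made up 0.782 of the range, above the critical value of 0.625 for 6 samples. Chance sets off this rule in about 1 of 20 groups, and 8 were examined.

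The substrate effect differed between media with and without PD03, by an interaction test, in 6 cases. With LIF the log2 difference of soft over stiff changed by −0.59 for Krt8, −0.49 for Krt18, −0.72 for Krt19 and −0.56 for Lmna. Without LIF it changed by 0.25 for Vim and 0.46 for Nes. Between 24 h and 48 h in serum + LIF it changed by 0.50 for Krt8 and 0.62 for Nes.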

How the results depend on the processing

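For single members, 3340 values kept their direction and side of the threshold, 81 lost the call, 35 gained one and 56 changed sign, and the reasons were not tested. The changes of sign fell on 31 results, reached a size of at most 0.28, and 29 came from omissions, 22 from the SLX term and 5 from other settings. Lmnb2 between 24 h and 48 h on soft hydrogels, at −0.01 in the lowest SLX refit, was the 1 result among them that was called in the model used. The others were not called there. In SLX refits, soft against stiff at 48 h changed sign in serum + LIF for Krt19 (−0.43 to 0.11), Vim (0.03), Lmnb1 (0.06) and Lmnb2 (−0.07), in serum for Lmna (0.07) and Lmnb2 (−0.01), in serum + PD03 for Nes (0.02), in serum + LIF + PD03 for Lmnb1 (−0.03), and on the mean for Lmnb2 (−0.02). So did soft against plastic for Lmna (−0.28) and Lmnb1 (0.04), stiff against plastic for Lmna (−0.06), LIF on stiff without PD03 for Vim (−0.01) and Lmna (0.04), LIF on soft with PD03 for Krt19 (0.02) and time on stiff hydrogels for Vim (0.03). Of the interactions, Lmnb2 changed sign for PD03 without LIF (0.02) and with LIF (−0.03), for LIF without PD03 (0.04) and for time (−0.04), and Lmna for time (−0.07). Library totals turned Lmnb1 in soft against stiff at 24 h (0.02) and in LIF on stiff without PD03 (0.01). No filter turned Lmnb1 in soft against stiff in serum + LIF at 48 h (0.01), Vim in LIF on stiff without PD03 (−0.01) and Lmnb2 in substrate by LIF without PD03 (0.02). Omissions spanned 0 in soft against stiff for Lmnb1 (−0.05 to 0.01) and Lmnb2 (−0.05 to 0.02) at 24 h, and for Lmnb1 at 48 h in serum + LIF (−0.02 to 0.03) and serum + LIF + PD03 (−0.01 to 0.05). They did so for LIF on soft without PD03 for Krt8 (−0.13 to 0.04) and Krt18 (−0.18 to 0.03), on stiff without PD03 for Vim (−0.04 to 0.04), Lmna (−0.06 to 0.04) and Lmnb1 (−0.07 to 0.03), on stiff with PD03 for Lmnb2 (−0.05 to 0.01), and for time on stiff hydrogels for Vim (−0.04 to 0.01). For the interactions they did so for Krt18 (−0.13 to 0.01) and Lmnb2 (−0.04 to 0.03) with PD03 without LIF, Lmnb2 with PD03 with LIF (−0.03 to 0.06), Krt18 (−0.01 to 0.18) and Lmnb2 (−0.05 to 0.05) with LIF without PD03, and Lmnb2 with LIF with PD03 (−0.01 to 0.05). Counts of members called moved as follows. For soft against stiff in serum + LIF at 48 h (2), leaving out single libraries gave 1 to 2, and the SLX term gave as few as 0. For LIF on soft hydrogels without PD03 (1), library totals, only the groups compared and the lowest SLX refit gave 0, and omissions 0 to 1. For LIF on soft hydrogels with PD03 (1), omissions gave 0 to 1. For LIF on stiff hydrogels without PD03 (0), no filter gave 2 and the highest SLX refit 1. With PD03 (2), no filter and only the groups compared gave 4, and omissions 2 to 3. For the LIF mean (0), the highest SLX refit gave 1, as did leaving out soft serum + LIF + PD03 library 2 or stiff serum + PD03 library 1, and omissions ranged from 0 to 1. For 48 h against 24 h on soft hydrogels (7), the lowest SLX refit gave 1 and omissions 6 to 8. For substrate by PD03 without LIF (2), only the groups compared and the lowest SLX refit gave 1, and omissions 1 to 3, while with LIF (4) omissions gave 2 to 4. For substrate by LIF without PD03 (0), DESeq2 and no filter gave 1 each, and with PD03 (0) no filter gave 3. For substrate by time (2), library totals and only the groups compared gave 1, the lowest SLX refit 0, and omissions 1 to 3. Over all genes, calls for soft against stiff in serum + LIF at 48 h were 138 in the model used, 252 by DESeq2, 266 with no filter, 22 to 181 under omissions and 0 to 41 with the SLX term. The SLX term gave 173 to 384 genes in serum against 858, 276 to 678 in serum + PD03 against 982, 246 to 724 in serum + LIF + PD03 against 1348, and 380 to 935 on the mean against 3027. It gave 126 to 445 for soft against plastic (2083), 225 to 431 for stiff against plastic (981), 345 to 813 for time on soft (4315) and 2219 to 2431 on stiff hydrogels (4535). DESeq2 called 34 genes against 3 for LIF on soft without PD03, 44 against 19 on soft with PD03, 156 against 91 on stiff with PD03, 306 against 141 for substrate by PD03 without LIF and 99 against 45 for substrate by time. DESeq2 also gave 498 against 328 for the LIF mean, and 66 against 15 and 3 against 1 for substrate by LIF without and with PD03. With no filter, LIF gave 46 genes on soft without PD03, 381 against 249 on stiff without PD03, 73 on soft with PD03 and 141 on stiff with PD03, and the interactions gave 222 for PD03 without LIF, 173 and 21 for LIF and 189 for time. With only the groups compared, LIF on stiff with PD03 gave 402 and substrate by LIF 1 and 5. Omissions lowered the counts to 564 in serum, 521 in serum with PD03 and 117 for LIF on stiff without PD03. Another scaling shifted the median log2 change of all genes by at most 0.072. No paired analysis was possible because the columns of the count table carry no replicate number.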
